A study of Mus musculus with 4 samples.

Results

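Chemokines are small secreted proteins that draw white blood cells towards their source by binding receptors of the G protein-coupled class, and atypical receptors take chemokines up without that signal. In the lung, alveolar and airway epithelium, macrophages and vessel walls release them, and injury changes which cells are called in. Mouse chemokines and their receptors were read here on Affymetrix oligonucleotide arrays, taken as all probe sets whose single platform gene symbol starts with Ccl, Cxcl, Ccr, Cxcr or Xcl followed by a digit, or is Cx3cl1, Cx3cr1, Ackr1, Ackr2 or Ackr3. The rule found 46 probe sets for 41 genes, among 10833 probe sets with 1 gene symbol for 8251 genes. It covers 29 ligand and 17 receptor probe sets.

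Each of 4 arrays carried RNA pooled from the entire lungs of mice of the inbred strain C57BL/6J. Mice of 3 pools had inhaled aerosolised hexamethylene diisocyanate (HDI), a reactive ingredient of polyurethane coatings, at 10 mg per cubic metre, and their lungs were collected 6, 18 or 90 h later, while those of the fourth pool were unexposed. No other allele, agent or age is given in the sources used here, nor are the number of mice per pool, an air or vehicle exposure or the hour of collection. With 1 array per pool there are no replicates, no test was made, and every fold describes these arrays. The 3 comparisons with unexposed lungs share that array. Whole lung RNA cannot tell fewer cells of a type from less RNA per cell.

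Values are deposited intensities after scaling the arrays to a common trimmed mean. They are called units here, and since probe sets differ in brightness no gene's level is set against another's. A value at or under the floor of 77.7 units was taken as background, and where 1 of the compared arrays was at the floor the fold is a lower limit, given as at least that size. As a yardstick of measurement error, a robust SD per probe set was taken from how paired probe sets of 1 gene differed. It was 0.27, 0.27 and 0.25 log2 units in the comparisons of 6, 18 and 90 h with unexposed lungs. The pairs numbered 291, 286 and 284. Probe sets at the floor, or with a name suffix for possible cross-hybridisation, gave no pairs, so their error may be larger. The yardstick also leaves out differences between animals and pools. Median deposited intensities were 97.7 to 108. All 5 alveolar and airway epithelium markers and all 6 endothelium markers on the array were above the floor in every pool, which does not show that the pools were alike. The epithelium markers summed to 28026, 25592, 24813 and 23916 units in unexposed lungs and at 6, 18 and 90 h. In the same order, 3 thymus markers summed to 2939, 1892, 1734 and 1987 units and 2 blood markers to 8449, 8691, 7871 and 6420 units. The part of such tissue in the member values was not tested.

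Of the 46 probe sets, 29 (63.0%) lay above the floor on at least 1 array, against 69.0% of all probe sets with 1 symbol. On all 4 arrays 21 (45.7%) were above it, against 54.0%. By pool, 24, 24, 28 and 24 were above it in unexposed lungs and at 6, 18 and 90 h. Over all 10833 probe sets the counts were 6686, 6668, 6618 and 6717 in the same order. The 29 stood for 27 genes, and for 14 of the 41 genes no probe set passed the floor anywhere, against 1963 of 8251 genes over all. Of these 14, Ccl3, Ccl11, Ccl12, Ccl25, Cxcl2, Cxcl9, Cxcl10 and Cxcl13 are ligands and Ccr1, Ccr1l1, Ccr3, Ccr7, Ccr9 and Cxcr5 are receptors. Cxcl10 and Ccr1l1 were listed at 0 in unexposed lungs. Nothing can be said of changes in these genes, which include Cxcl2, a neutrophil attractant, with 3.65, 8.01, 15.4 and 16.2 units in unexposed lungs and at 6, 18 and 90 h.

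The proximal promoters of 4 ligands, picked by hand, are shown. These genes were highest in the 18 h pool (Ccl17, Cxcl14) or the 90 h pool (Ccl6, Ccl9). Other ligands highest in those pools, such as Cxcl1 at 18 h and Cxcl12 by its brightest probe set at 90 h, are not shown. Each runs 5′ to 3′ on the gene's strand from 250 bases before to 50 bases after the start, from RefSeq on build GRCm38.p6, and capitals mark matches to searched motifs. The windows are chr11:83593038-83593337 on the minus strand for Ccl6, chr11:83578587-83578886 on the minus strand for Ccl9, chr8:94810203-94810502 on the plus strand for Ccl17 and chr13:56296502-56296801 on the minus strand for Cxcl14.
Ccl6: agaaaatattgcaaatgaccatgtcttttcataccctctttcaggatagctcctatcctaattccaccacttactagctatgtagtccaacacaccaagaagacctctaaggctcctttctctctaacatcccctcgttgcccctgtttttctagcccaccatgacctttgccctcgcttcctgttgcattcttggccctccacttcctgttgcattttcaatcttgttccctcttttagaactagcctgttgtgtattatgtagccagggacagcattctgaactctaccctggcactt
Ccl9: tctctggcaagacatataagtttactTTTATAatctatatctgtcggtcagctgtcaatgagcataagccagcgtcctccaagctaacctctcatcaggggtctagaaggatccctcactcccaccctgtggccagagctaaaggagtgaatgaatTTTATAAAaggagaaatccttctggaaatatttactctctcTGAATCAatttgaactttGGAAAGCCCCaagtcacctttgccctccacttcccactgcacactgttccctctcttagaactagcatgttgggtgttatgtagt
Ccl17: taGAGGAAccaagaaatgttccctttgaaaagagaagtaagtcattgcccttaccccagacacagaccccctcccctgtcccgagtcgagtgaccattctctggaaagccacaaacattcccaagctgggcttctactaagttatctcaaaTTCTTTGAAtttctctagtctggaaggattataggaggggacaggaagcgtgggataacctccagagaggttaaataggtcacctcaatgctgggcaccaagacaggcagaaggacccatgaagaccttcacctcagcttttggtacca
Cxcl14: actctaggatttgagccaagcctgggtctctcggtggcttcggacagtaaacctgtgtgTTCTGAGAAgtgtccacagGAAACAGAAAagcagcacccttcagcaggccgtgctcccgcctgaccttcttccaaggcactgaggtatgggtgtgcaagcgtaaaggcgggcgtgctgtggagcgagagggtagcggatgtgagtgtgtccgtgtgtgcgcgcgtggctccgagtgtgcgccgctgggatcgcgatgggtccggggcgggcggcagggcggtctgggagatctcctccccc

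The motifs, searched on both strands, were the TATA box (TATAAA), the AP-1 site (TGANTCA), the NF-kB site (GGGNNTTTCC), the STAT site (TTCNNNGAA), an interferon response element (GAAANNGAAA), the PU.1 core (GAGGAA) and the E-box (CACGTG). Windows were found for 33 of the 41 genes, 35 windows in all. Ccl2, Ccl4, Ccl5, Ccl7, Ccl11, Ccr7, Cxcl5 and Cxcr5 are not among them. The Ccl9 window holds a match to the AP-1 letters as searched, with the middle base left free, and reads TGAATCA there. Downstream of that match lies an NF-kB match on the strand opposite to the gene. The window also holds 3 TATA box matches, the last 2 of them overlapping. Only the last, whose first base is at -92 from the start, is on the gene's strand. The Ccl6 window holds none of the motifs. A STAT match lies in the Ccl17 and Cxcl14 windows, with a PU.1 core in Ccl17 and an interferon element in Cxcl14. The NF-kB letters occur in 4 of the 35 windows (11.4%), those of Ccl9, Ccr3, Cxcl1 and Cxcl2, and in 1.63% of all 32851 promoter windows. The STAT letters occur in 11.4% of member windows and 8.3% of all, the AP-1 letters in 17.1% and 7.81%, the interferon element in 5.71% and 3.44%, the PU.1 core in 31.4% and 28.3%, and the TATA box in 28.6% and 13.6%. The E-box is in 0 of the 35 windows and in 7.15% of all. A match describes letters and shows no binding. Ccl6 and Ccl9, next to each other in the genome, share a run of 13 bases, gccctccacttcc, where the median over 593 pairs of windows was 8 and 5 pairs shared as much or more.

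At 6 h after HDI the ligands Cxcl12 and Ccl5 were lower than in unexposed lungs and the scavenging receptor Ackr3 was higher. Of 27 probe sets compared, 1 was at least 2-fold higher and 3 at least 2-fold lower, against 3.8% of all 7140 probe sets compared (165 higher, or 2.31%, and 106 lower). Of the 3 lower ones, 2 belong to Cxcl12, so the count covers 3 genes. With a pseudocount replacing the floor it was 2 higher (Ackr3 and Cxcr2) and 1 lower (Ccr2), against 2.72% of all compared, and neither Cxcl12 nor Ccl5 passed 2-fold. The median log2 difference was -0.11, against -0.03 over all compared. By role, 11 of 16 ligand probe sets and 5 of 11 receptor probe sets were below 0, against 3855 of 7140 over all.

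Cxcl12 is the ligand of Cxcr4 and keeps haematopoietic cells and lymphocytes in their niches. Its brightest probe set read 352 units in unexposed lungs, 173 at 6 h, 408 at 18 h and 485 at 90 h. A second, whose suffix marks possible cross-hybridisation, read 246, 108, 317 and 334 units in the same order. The third read 118, 63.4, 150 and 111 units, so all 3 were lowest at 6 h. At 6 h they were 2.03-fold, 2.27-fold and at least 1.51-fold lower than in unexposed lungs. From 6 to 18 h they were 2.35-fold, 2.92-fold and at least 1.93-fold higher, and at 90 h 2 of the 3 stood 1.38-fold and 1.36-fold above unexposed lungs. At 6 h the brightest was under 2-fold with deposited values left unscaled, the second with the 60th percentile as floor, and both, at 1.80-fold and 1.87-fold, with a pseudocount replacing the floor.

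Both receptors of Cxcl12 had a dim probe set. Ackr3, which binds Cxcl12 and carries it into the cell, read 49.2 units in unexposed lungs, 165 at 6 h, 82 at 18 h and 77.4 at 90 h. Only its 6 h value stood clear of the floor. It was at least 2.13-fold higher at 6 h than in unexposed lungs and 2.02-fold lower at 18 h than at 6 h. Cxcr4, the signalling receptor, read 115, 56.9, 84.6 and 132 units in unexposed lungs and at 6, 18 and 90 h, with a log2 difference of -0.56 at 6 h that the floor cut short. The 6 h pool was thus the highest for Ackr3 and the lowest for Cxcr4 and all 3 Cxcl12 probe sets. At 18 h Cxcr4 was 1.36-fold below unexposed lungs, while the 3 Cxcl12 probe sets were above them. With the floor at the 60th percentile Ackr3 was under 2-fold at 6 h, and under each other scaling its step from 6 to 18 h was under 2-fold.

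Ccl5, which attracts T cells and monocytes and is made largely by T and NK cells, read 269 units in unexposed lungs, 115 at 6 h, 89.6 at 18 h and 153 at 90 h. It was lower in every exposed pool, 2.34-fold at 6 h, 3.0-fold at 18 h and 1.76-fold at 90 h. With the 60th percentile as floor it was under 2-fold at 6 and 18 h, and with a pseudocount 1.93-fold lower at 6 h. Of 11 T and NK cell markers on the array, 4 were above the floor in unexposed lungs and 3, 3 and 4 at 6, 18 and 90 h. The T cell markers Cd3d, Cd3g, Cd5 and Cd8a and the NK and cytotoxic markers Gzmb, Il2rb and Klrd1 were at the floor in every pool. The summed level of the 11 was 812, 663, 613 and 801 units, lowest in the 18 h pool as Ccl5 was. Their part in the Ccl5 difference was not tested. These sums, like all marker sums here, include values under the floor. Of the members above the floor, the T cell antigen Cd2 read 133, 88.3, 84.1 and 145 units and the cytotoxic granule enzyme Gzma 113, 53.4, 69 and 104 units, both lower at 6 and 18 h. The T cell receptor component Cd3e read 92.4, 92.8, 79 and 107 units and the helper T cell marker Cd4 138, 158, 123 and 138 units.

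Ccl3 and Ccl4 share receptors with Ccl5 and lie in the same run of genes. Ccl4, an attractant of macrophages and T cells, read 676 units in unexposed lungs, 869 at 6 h, 624 at 18 h and 620 at 90 h. The highest value was 1.28-fold above unexposed lungs, and at 18 h, where Ccl5 was lowest, Ccl4 was 1.08-fold lower. Ccl3 and the receptors Ccr1 and Ccr3 were at the floor in all pools.

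The membrane-bound chemokine Cx3cl1, made by endothelium and epithelium, read 218 units in unexposed lungs, 117 at 6 h, 189 at 18 h and 170 at 90 h. It was 1.87-fold lower at 6 h, and a second probe set was at the floor throughout. Its receptor Cx3cr1, found on monocytes, macrophages and NK cells, was the most even of the pair, with 147, 152, 155 and 162 units. Kdr, the vascular endothelial growth factor receptor of endothelium, was 2.45-fold lower at 6 h, while the summed level of 6 endothelium markers was 6455, 5981, 5750 and 6021 units.

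**Figure D1:**
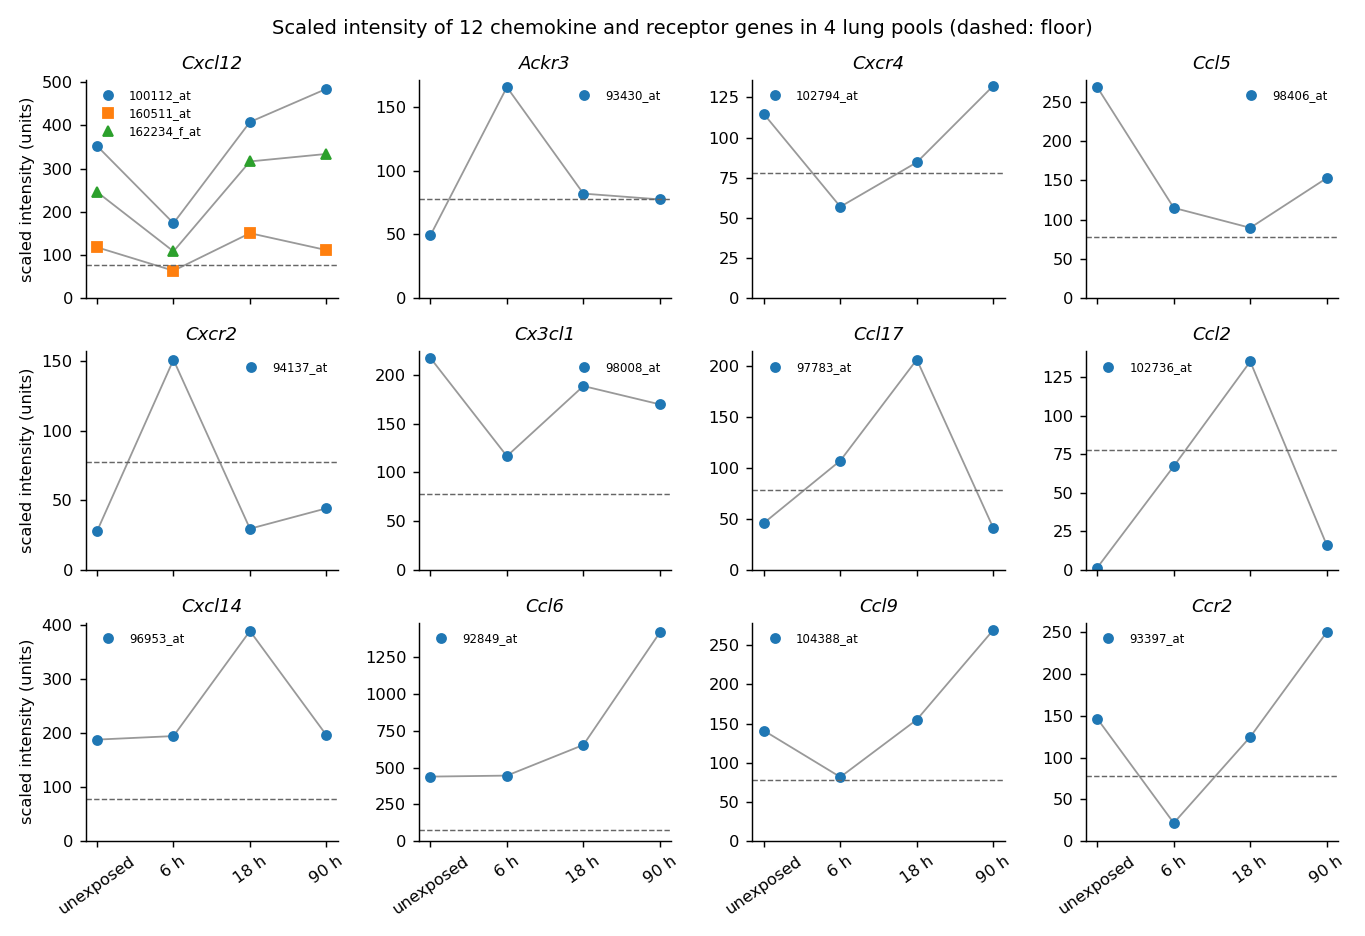
Scaled intensity in units (y axis, from 0) of 12 chemokine and receptor genes in the 4 lung pools (x axis), with 1 point per array and probe set and the floor dashed. Cxcl12 is lowest at 6 h in all 3 probe sets, Ccl17, Ccl2 and Cxcl14 peak at 18 h, and Ccl6, Ccl9 and Ccr2 are highest at 90 h.

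Cxcr2, the receptor for neutrophil-attracting ligands, stood above the floor in 1 pool. It read 27.5 units in unexposed lungs, 151 at 6 h, 29.4 at 18 h and 44 at 90 h. The difference at 6 h was at least 1.94-fold, under the 2-fold threshold with this floor. Its lower limit moved with the floor, to 3.30-fold for the 25th percentile and 1.10-fold for the 60th. Of 7 alternative settings, 2 put Cxcr2 past 2-fold at 6 h, the lower floor and the pseudocount. Each of the other scalings left it under 2-fold. Cxcr2, Ccl2, Ccl7, Ccl9, Cx3cl1 and Ccr6 were singled out after their values were seen. Of 11 neutrophil markers on the array, 9 were above the floor in unexposed lungs and 8 in each exposed pool, with Ly6g and Mmp8 at the floor in all. Their summed level was 2089, 1721, 1625 and 2120 units in unexposed lungs and at 6, 18 and 90 h, so it was not highest at 6 h.

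The ligands of Cxcr2 were dim. Cxcl1 read 110 units in unexposed lungs, 138 at 6 h, 145 at 18 h and 85.9 at 90 h by a probe set with a suffix for possible cross-hybridisation, at most 1.32-fold above unexposed lungs. Its other probe set, without such a suffix, was under the floor in all pools, and both had their highest value at 18 h. Cxcl5 was nearly level, with 95, 84, 87.9 and 92.9 units.

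At 18 h the ligands Ccl17 and Cxcl14 were higher than in unexposed lungs and Ccl5 was at its lowest. Of 28 probe sets compared, 2 were at least 2-fold higher and 1 at least 2-fold lower, against 2.44% of all 7127 compared (1.59% higher and 0.856% lower). The median log2 difference was -0.05, against -0.02 over all compared. None of the 10 receptor probe sets compared passed 2-fold, and 8 of them were below 0, against 3711 of 7127 over all.

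Ccl17 attracts T cells that carry Ccr4 and is made by dendritic cells and macrophages. It read 45.7 units in unexposed lungs, 107 at 6 h, 206 at 18 h and 40.7 at 90 h. It was above the floor at 6 and 18 h and under it in the other pools, at least 2.65-fold higher at 18 h than in unexposed lungs and at least 2.65-fold lower at 90 h than at 18 h. Ccl22, the other Ccr4 ligand and a close neighbour of Ccl17 on chromosome 8, read 182, 122, 147 and 122 units, highest in unexposed lungs. Ccr4 itself was within 1.08-fold of unexposed lungs, with 182, 168, 176 and 171 units. The floor at the 60th percentile brought Ccl17 under 2-fold. All 7 dendritic cell markers on the array were above the floor in every pool, with summed levels of 7598, 5793, 5999 and 8354 units. Of their 8 probe sets, 7 were below 0 at 6 h and 7 at 18 h, against 3855 of 7140 and 3711 of 7127 over all. Fscn1, an actin bundler of mature dendritic cells, read 397, 101, 500 and 383 units, 3.92-fold lower at 6 h than in unexposed lungs and 4.94-fold higher at 18 h than at 6 h. The part of these cells in the Ccl17 value was not tested.

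Cxcl14, a chemokine made by epithelium, read 188 units in unexposed lungs, 195 at 6 h, 390 at 18 h and 196 at 90 h. The 18 h pool stood alone. It was 2.07-fold above unexposed lungs and 2.0-fold above the 6 h pool, at the threshold itself. The 90 h value was 1.99-fold below the 18 h value. Quantile and cyclic loess scaling brought the step from 6 to 18 h under 2-fold, and both 18 h differences were under 2-fold when a pseudocount replaced the floor.

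Ccl2 and Ccl7, ligands of the monocyte receptor Ccr2, were above the floor at 18 h and in no other pool. Ccl2 read 1.22 units in unexposed lungs, 67.1 at 6 h, 135 at 18 h and 15.9 at 90 h. Ccl7 read 45, 46.3, 104 and 27.6 units. At 18 h they were at least 1.74-fold and at least 1.34-fold above unexposed lungs, bounds set by the floor. With the floor at the 25th percentile these became at least 2.95-fold and at least 2.27-fold. With the floor at the 60th percentile, 138 units, both genes were under it in every pool. With a pseudocount in place of the floor they were 3.62-fold and 1.62-fold higher. On chromosome 11 Ccl2 and Ccl7 are next to each other at 1 end of a run of 6 chemokine genes. Of the other 4, Ccl11 and Ccl12 were at the floor in all pools. Ccl8 read 105, 99.8, 84.4 and 97.3 units and Ccl1 146, 146, 118 and 149 units, both lowest at 18 h. The second probe set of Ccl1 was at the floor.

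**Figure D2:**
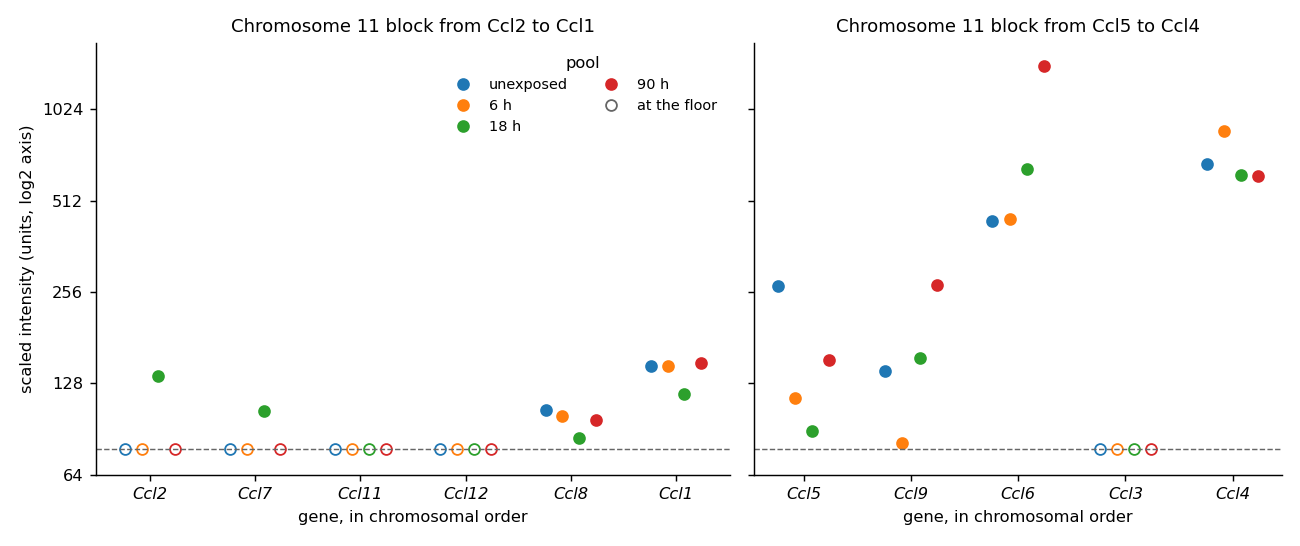
Scaled intensity in units (y axis, log2 scale) of the chemokine genes of 2 runs on chromosome 11, in chromosomal order (x axis), by the brightest probe set of each gene. Points are arrays, open points were set to the dashed floor. Neighbours Ccl2 and Ccl7 leave the floor at 18 h, and neighbours Ccl9 and Ccl6 are highest at 90 h while Ccl5 and Ccl4 of the same run are not.

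From 6 to 18 h, 3 of 29 probe sets compared were at least 2-fold higher (2 of Cxcl12, and Cxcl14) and 1 lower (Ackr3), against 2.32% of all 7069 compared (1.13% higher and 1.19% lower). Of 18 ligand probe sets, 3 of them of Cxcl12, 14 were above 0, and of 11 receptor probe sets 5, against 3410 of 7069 over all. The median log2 difference of the 15 ligand probe sets measured on both arrays was 0.27, and that of the 8 such receptor probe sets was -0.19, against -0.01 over all. This comparison shares an array with each of the comparisons of 6 and 18 h with unexposed lungs.

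At 90 h the monocyte and macrophage chemokine Ccl6 stood furthest above unexposed lungs. It alone passed 2-fold among 24 probe sets compared, against 1.63% of all 7163 compared (0.684% higher and 0.949% lower), so the members' share of 4.17% rests on 1 gene. The median log2 difference was -0.09, against 0.02 over all compared. After Ccl6 came Ccl9 and Ccr2, 1.91-fold and 1.71-fold above unexposed lungs.

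Ccl6 read 438 units in unexposed lungs, 445 at 6 h, 654 at 18 h and 1420 at 90 h. It was 1.49-fold higher at 18 h and 3.24-fold higher at 90 h, and passed 2-fold at 90 h under all 7 other settings of scaling, floor or pseudocount, by log2 differences of 1.59 to 1.84. Its neighbour Ccl9, which like Ccl6 is a macrophage product that acts through Ccr1, read 141, 81.7, 155 and 270 units, 1.91-fold higher at 90 h and 1.73-fold lower at 6 h. Unscaled, the 90 h difference of Ccl9 passed 2-fold, with a log2 difference of 1.08. Both genes were highest at 90 h, and at 6 h Ccl9 was lower while Ccl6 was level.

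Ccr2, the receptor that brings monocytes out of the bone marrow, read 147 units in unexposed lungs, 21.5 at 6 h, 125 at 18 h and 250 at 90 h. It was under the floor at 6 h, at least 1.89-fold lower than in unexposed lungs, and 1.71-fold higher at 90 h. The step from 18 to 90 h was 2.01-fold. In that step 2 of 28 probe sets compared were at least 2-fold higher (Ccl6 and Ccr2) and 1 lower (Ccl17), against 1.82% of all 7039 compared (0.895% higher and 0.923% lower). The highest Ccr2 value came at 90 h and the highest Ccl2 and Ccl7 values at 18 h. Ccr2 was under 2-fold in this step with array median, quantile or cyclic loess scaling, with a pseudocount, and with the 60th percentile as floor, so 2 of 7 alternatives kept it past 2-fold.

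Most markers of several cell types were higher at 90 h than at 18 h. Of 12 macrophage and monocyte markers on the array, 8 were above the floor in unexposed lungs and 9, 9 and 10 at 6, 18 and 90 h, with Marco and Msr1 at the floor in all. Their summed level was 5355, 4172, 4572 and 7485 units. At 90 h Ctsk, a cathepsin, was at least 3.10-fold higher, Chil3, a chitinase-like lectin, 2.16-fold and Mrc1, the mannose receptor, 2.04-fold, and 11 of 12 probe sets compared were above 0, against 3818 of 7163 over all. At 6 h Mpeg1, a pore-forming macrophage protein, was 2.05-fold lower. From 18 to 90 h, 10 of 11 macrophage and monocyte, 10 of 10 neutrophil, 7 of 8 dendritic cell and 7 of 10 fibroblast and smooth muscle probe sets compared were above 0, against 3708 of 7039 over all. The neutrophil proteins S100a8 and S100a9 were 1.83-fold and 1.77-fold above unexposed lungs at 90 h. In that comparison, of 11 neutrophil probe sets 6 were above 0 and 5 below, with a median log2 difference of 0.02. The part of these cells in the values of Ccl6, Ccl9 and Ccr2 was not tested.

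**Figure D3:**
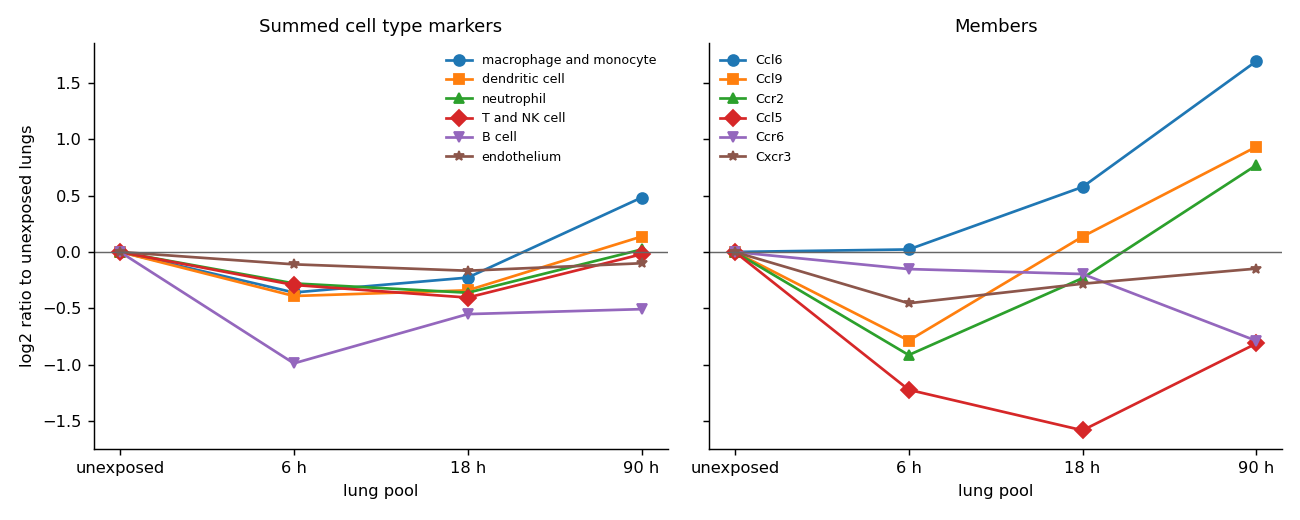
Log2 ratio to unexposed lungs (y axis) in the 4 pools (x axis) of the summed intensity of cell type marker lists (left) and of 6 member genes with values set to the floor where they were under it (right). The sums of macrophage and monocyte, dendritic cell and neutrophil markers are highest at 90 h, as are Ccl6, Ccl9 and Ccr2. Against unexposed lungs these sums are 7485 to 5355, 8354 to 7598 and 2120 to 2089 units, so the neutrophil sum is nearly level. The sums of macrophage and monocyte, dendritic cell and B cell markers are lowest at 6 h.

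Ccr6, Ccr8, Cxcr3 and Xcl1 were under 2-fold in every comparison. Ccr6, found on B cells and some T cells, read 210 units in unexposed lungs, 189 at 6 h, 183 at 18 h and 121 at 90 h, 1.73-fold lower at 90 h. The B cell receptor for Cxcl13, Cxcr5, was at the floor in all pools. The summed level of 7 B cell markers was 2317, 1167, 1580 and 1629 units, with Cd22 at the floor in all and 6, 5, 6 and 6 above it. It was lowest at 6 h, where Ccr6 was 1.11-fold lower, and its part in the Ccr6 value was not tested. Ccr8, a receptor of regulatory and type 2 helper T cells, read 414, 428, 318 and 279 units, with a log2 difference of -0.57 at 90 h. Cxcr3, the receptor for the interferon-induced ligands Cxcl9 and Cxcl10, read 204, 149, 168 and 184 units, lowest at 6 h by 1.37-fold. Xcl1, which T and NK cells make and dendritic cells sense, read 122, 105, 122 and 86.7 units, lowest at 90 h.

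The other atypical receptors differed from Ackr3. Ackr2, which clears inflammatory CC chemokines, read 229 units in unexposed lungs, 315 at 6 h, 223 at 18 h and 190 at 90 h, 1.38-fold higher at 6 h. Ackr1, the chemokine-binding protein of red cells and venules, read 159, 179, 141 and 214 units, 1.35-fold higher at 90 h. Both shifts were under 2-fold. Ackr2 and Ackr3 had their highest value at 6 h.

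**Figure D4:**
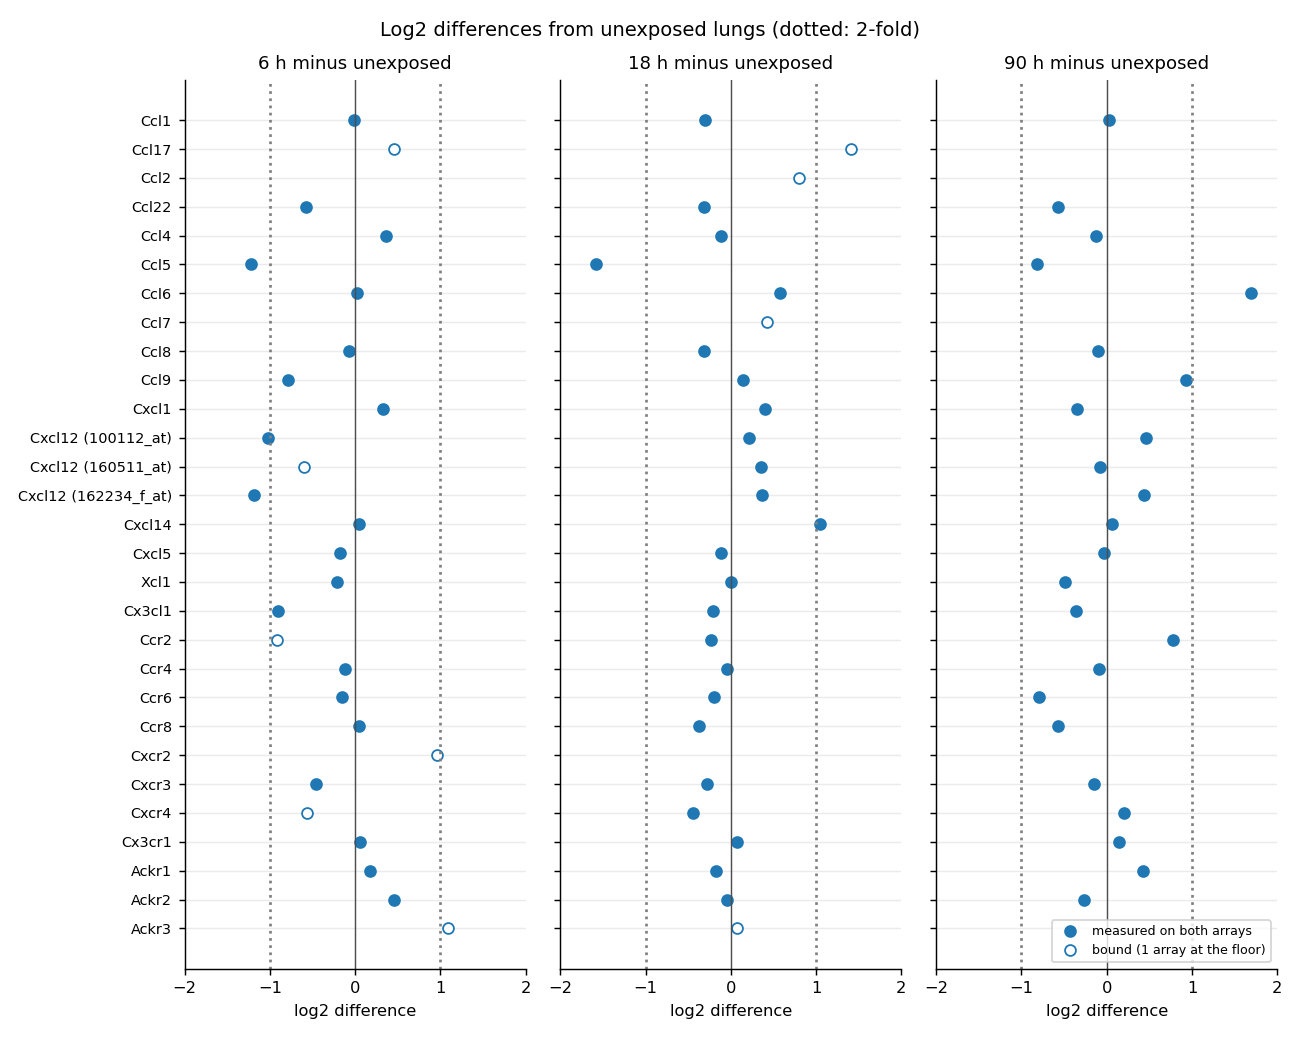
Log2 difference from unexposed lungs (x axis) of the 29 probe sets above the floor on at least 1 array (y axis, by role), at 6, 18 and 90 h. Filled points were measured on both arrays, open points are bounds, a missing point was at the floor on both, and dotted lines mark 2-fold. Ccl5 and 2 of the 3 Cxcl12 probe sets lie furthest left at 6 h, Ccl17 and Cxcl14 furthest right at 18 h, and Ccl6 furthest right at 90 h.

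Among the 19 probe sets whose 4 floored values spanned at least 1.5-fold, 3 were highest in unexposed lungs, 4 at 6 h, 5 at 18 h and 7 at 90 h. Over all 2214 such probe sets the shares were 25.9%, 28.2%, 22.2% and 23.7%. The 7 were Ackr1, Ccl6, Ccl9, Ccr2, Cxcr4 and 2 probe sets of Cxcl12.

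A list of genes that act with chemokines on moving white cells held 29 genes on the array with 39 probe sets, of adhesion molecules, integrins, G proteins, arrestins and other attractant receptors. At 6 h 0 of 28 compared were at least 2-fold higher and 1 lower, at 18 h 0 of 27 were higher and 1 lower, and at 90 h 1 of 28 was higher and 0 lower. These are 3.57%, 3.70% and 3.57%, against 3.8%, 2.44% and 1.63% of all probe sets compared. The median log2 differences were -0.15, -0.12 and -0.03, against -0.03, -0.02 and 0.02 over all. The lower one was Rgs2, which shortens G protein signals, 2.22-fold at 6 h and 2.11-fold at 18 h. The higher one at 90 h was Itgb2, the beta chain of the leukocyte integrins, at 2.17-fold. Icam1, its endothelial and epithelial ligand, was 1.74-fold higher at 6 h. Ltb4r1, the receptor for the attractant leukotriene B4, was at least 1.99-fold lower at 6 h and at 90 h.

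In a list of regulators and cytokines known to drive or curb chemokine genes, of 28 probe sets compared 5 were at least 2-fold higher and 1 lower at 6 h, of 27 at 18 h 3 and 0, and of 28 at 90 h 0 and 0. These are 21.4%, 11.1% and 0% of those compared, beside the same shares over all probe sets as above. Both Socs3 probe sets were among the higher ones at 6 h and at 18 h, so those counts cover fewer genes than probe sets. Like the other gene lists here, this list was chosen with earlier results of these data known, so its shares are only a description. The median log2 differences were 0.13, 0.20 and 0.01. Socs3, which dampens cytokine receptors, was 2.81-fold and 3.63-fold higher at 6 and 18 h by its brighter probe set, and Cebpd, a transcription factor of the acute phase, 3.08-fold and 2.55-fold. Nfkbia, the inhibitor of NF-kB, was 2.02-fold and 1.91-fold higher at 6 h by its probe sets, and Zfp36, which destabilises cytokine messages, 2.09-fold. Irf7, an interferon regulator, was at least 2.01-fold lower at 6 h. The cytokines Il6, Il1a, Ifng, Ifnb1, Il10 and Csf3 were at the floor in all pools, and Tnf was within 1.15-fold of unexposed lungs.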

How the data were processed

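Total RNA of 4 lung pools was read on 1 array each. The deposited values are intensities, linear, 1 for each probe set in each sample, with exact zeros and none negative. How these intensities were background-corrected and scaled is not given in the sources used here, and no detection calls were used. Of 12488 probe sets, 66 were controls, 10833 had 1 symbol in the platform annotation, 396 had several and 1193 were not listed. Gene identifiers matched RefSeq (GRCm38.p6) for all 46 member probe sets, and no symbol changed.

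Arrays were scaled to an equal mean after trimming 2% at each end (factors 1.07, 0.993, 0.970 and 0.972 for unexposed, 6, 18 and 90 h). A floor of 77.7 units, the 40th percentile over the scaled table, replaced lower values before log2. Probe sets at the floor on both arrays were not compared, and those past 2-fold were counted, without a test, since 1 array per pool leaves no spread. The number of arrays limits the precision.

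The member rule and gene lists were chosen with earlier results of these data known. Values per pool were given for genes past 2-fold in any of 5 comparisons, for the 10 brightest probe sets and, chosen after the values were seen, for the other members above the floor and for Cxcl2. Other scalings (none, median, quantile, cyclic loess in limma 3.58.1), floors at the 25th and 60th percentile, a pseudocount of 50, 1 value per gene, exclusion of suffixed probe sets and thresholds of 1.5-fold and 3-fold were tried. The code, in Python 3.11.15, was tested on simulated data.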

Additional observations from a re-analysis of the deposited data

Results flagged for a closer look

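Ccl9 and Ccr2 stood on opposite sides of unexposed lungs at 6 and 90 h, each by at least 1.5-fold, with 1 array per time, so the difference between times was not tested. The log2 difference of Ccl9 was -0.79 at 6 h and 0.93 at 90 h. That of Ccr2 was -0.92 at 6 h, cut short by the floor, and 0.77 at 90 h. Both differences from unexposed lungs share the unexposed array.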

How the results depend on the processing

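Counts of members past 2-fold were small and moved mostly with the floor and the threshold. With the floor at the 25th percentile, 8 members were past 2-fold at 6 h, 5 at 18 h, 9 from 6 to 18 h and 5 from 18 to 90 h, in place of 4, 3, 4 and 3. Members compared then numbered 40, 39, 38 and 38, and the shares over all probe sets compared were 4.37%, 3.2%, 2.64% and 2.24%. With the 60th percentile there was 1 at 6 h, 1 at 18 h and 1 from 18 to 90 h. Each was of 21 compared, against 3.35%, 2.07% and 1.69% over all. A threshold of 1.5-fold gave 9 at 6 h, 5 at 90 h, 11 from 6 to 18 h and 11 from 18 to 90 h. These were of 27, 24, 29 and 28 compared, against 13.4%, 8.31%, 9.9% and 7.52% over all. A threshold of 3-fold gave 0 at 6 h, 0 at 18 h, 0 from 6 to 18 h and 0 from 18 to 90 h, against 0.896%, 0.519%, 0.495% and 0.483% over all. Averaging the probe sets of a gene gave 2 of 25 genes compared at 6 h, against 2.71% over all. Quantile scaling gave 2 of 29 from 6 to 18 h, against 2.21% over all. Unscaled values gave 2 of 25 at 90 h, where Ccl9 joined Ccl6, against 1.67% over all. A stricter floor or threshold, or 1 value per gene, lowers such counts by construction. Leaving out the scaling factors, 1.07 for unexposed and 0.972 for 90 h, raises all differences measured at 90 h alike, also by construction. Ccl9 thereby went from a log2 difference of 0.93 to 1.08. For quantile scaling the cause was not tested. Of 46 members, 29 lay above the floor on an array, 40 with the lower floor and 23 with the higher. The 15 differences past 2-fold kept their sign in all 105 values under other scalings, floors or a pseudocount and stayed past 2-fold in 80. Without scaling, the median over all probe sets was a log2 difference of 0.12 at 18 h and 0.16 at 90 h, and it moved the share of higher among all called from 64.9% to 82.8% at 18 h and from 41.9% to 61.3% at 90 h. Members called were then 2 higher and 1 lower of 28 at 18 h, and 2 higher and 0 lower of 25 at 90 h, against 2.8% and 1.67% over all. No paired analysis was possible because each group holds 1 array.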

Other observations

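Probe sets with several symbols were left out of the members. Of these, 4 list at least 1 chemokine symbol beside others, and 2 of the 4 were above the floor in all pools. Their scaled values ran from 24.7 to 909 units, and none passed 2-fold in any of the 5 comparisons.

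Among the promoter windows of member genes, those of Cxcl1 and Cxcl2, neighbours on chromosome 5, shared the longest run of identical bases, 20. Both hold the NF-kB letters, and both genes were dim on these arrays.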
